A study of Mus musculus with 8 samples.

Results

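Transcripts of the phagocyte NADPH oxidase and of its relative Nox4 were followed in brown adipose tissue of 8 mice. The set held 7 genes of 41388 in the count tables: Cybb, Cyba, Ncf1, Ncf4, Rac1, Rac2 and Nox4. They were picked by name, with the ANKO against WT difference of these libraries already known, so their differences are given as a description with no test. The 4 ANKO mice carried floxed Nampt together with a Cre transgene driven by the adipocyte-specific adiponectin promoter. The 4 WT mice were labelled wild type and carried the same floxed alleles. Both groups were of strain C57BL/6J, lived at room temperature and ate regular chow, and no age or sex is stated in the sources. Cells that do not make adiponectin, such as macrophages, lymphocytes and endothelial cells, are not targeted by this Cre and keep an intact Nampt.

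NADPH oxidases pass electrons from cytosolic NADPH across a membrane to oxygen. In phagocytes the catalytic subunit NOX2, encoded by Cybb, sits in the membrane with its partner from Cyba, and it stays silent until cytosolic subunits, among them those from Ncf1 and Ncf4, and a Rac GTPase join it. NOX4 shares the Cyba partner but needs none of the cytosolic subunits, releases mainly hydrogen peroxide and is known from adipocytes, fibroblasts, kidney and vessel walls. Nampt makes nicotinamide mononucleotide, a precursor of NAD+, and NAD kinase turns NAD+ into NADP+, the oxidised form of the oxidase substrate.

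The promoters of the members are shown first. RefSeq promoters were at hand for 4 of the 7 members (GRCm38.p6), and those of Ncf4, Rac1 and Rac2 were not matched. The windows are the 250 bases before the RefSeq start, 5′ to 3′ on the gene's strand, at chrX:9469325-9469574 (minus strand) for Cybb, chr5:134229626-134229875 (minus strand) for Ncf1 and chr7:87246399-87246648 (plus strand) for Nox4. Capitals mark GAAANNGAAA on either strand, a pair of half-sites of the interferon regulatory factor type.
Cybb: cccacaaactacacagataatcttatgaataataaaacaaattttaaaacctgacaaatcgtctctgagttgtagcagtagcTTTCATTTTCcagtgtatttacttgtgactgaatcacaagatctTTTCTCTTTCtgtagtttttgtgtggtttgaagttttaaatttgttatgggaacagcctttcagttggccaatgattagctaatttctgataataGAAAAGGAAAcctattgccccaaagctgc
Ncf1: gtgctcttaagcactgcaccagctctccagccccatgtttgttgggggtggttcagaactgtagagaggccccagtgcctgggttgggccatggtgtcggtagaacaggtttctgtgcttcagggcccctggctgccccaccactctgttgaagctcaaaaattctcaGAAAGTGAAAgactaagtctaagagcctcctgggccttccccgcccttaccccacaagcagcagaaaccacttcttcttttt
Nox4: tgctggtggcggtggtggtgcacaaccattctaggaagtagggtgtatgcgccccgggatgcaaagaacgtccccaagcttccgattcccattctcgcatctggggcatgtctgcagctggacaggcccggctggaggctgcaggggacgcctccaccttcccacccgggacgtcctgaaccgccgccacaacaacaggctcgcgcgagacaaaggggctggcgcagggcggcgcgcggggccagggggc
The Cybb window held 3 such matches, which start 168, 124 and 29 bases before the gene's start. Ncf1 held 1, starting 82 bases before its start, and the windows of Nox4 and of Cyba (chr8:122432941-122433190, minus strand) held 0. Among 32851 RefSeq promoters of the same length, 2.98% had at least 1 match and 0.0122% had 3 or more. The heptamer TGANTCA, the AP-1 type, was found once, 139 bases before the start of Cybb, against 6.75% of all promoters with a match. Its letters are TGAATCA and it lies apart from the capitals. GAGGAA, a core of the PU.1 type, was found in none of the 4 windows on either strand, against 23.3% of all promoters. Only that hexamer was searched, so other letters of the PU.1 type may be present. A match describes letters only and says nothing of binding. The Cybb and Nox4 starts used here lie inside the spans that the count tables give those genes, which begin farther upstream.

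Rac1 and Rac2 encode close relatives, and their reads could be confused if the sequences were alike over long runs. Their coding sequences (GENCODE M21, GRCm38) are identical at 77.0% of 579 bases, with 29 bases as the longest identical run. The last 45 coding bases, stop codon included, encode the tail that directs each GTPase to membranes, and they differ at 24 positions, marked in capitals. They lie at chr5:143506975-143507019 (Rac1) and chr15:78561908-78561952 (Rac2), both on the minus strand.
Rac1: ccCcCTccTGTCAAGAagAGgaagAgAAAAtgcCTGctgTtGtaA
Rac2: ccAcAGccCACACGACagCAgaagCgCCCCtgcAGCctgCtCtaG

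Libraries held 5738067 to 26426476 gene counts in ANKO and 21771276 to 49697156 in WT. On the scaled library sizes behind the CPM printed here, 3 counts correspond to at most 0.437 CPM, in ANKO4. Nampt, the targeted gene, was at 67.4, 69.5, 77.6 and 74.6 CPM in the 4 ANKO libraries and at 484, 484, 571 and 495 CPM in the 4 WT libraries. All ANKO libraries lay below all WT libraries, and 14.2% of the WT mean was left, in a tissue that also holds cells without Cre. Of 16705 genes tested, 58.2% differed between ANKO and WT, with 5111 higher and 4615 lower (edgeR quasi-likelihood, adjusted p under 0.05). With library totals in place of scaling factors the split was 5897 higher and 2940 lower, 66.7% in place of 52.5% higher, and the median log2 fold change of all genes was 0.17. Summed markers of skeletal muscle, a neighbour of brown fat, reached 9811 to 15012 CPM in ANKO and 33.0 to 2859 CPM in WT, where WT2 was highest and WT4 lowest. With the mean log2 muscle marker level as a covariate, which also separates the groups, 3887 genes were called. The markers of the labelled tissue were present: 8 brown adipocyte genes summed to 1020 to 3492 CPM in ANKO and to 7048 to 14407 CPM in WT, and all 8 fell.

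Brown fat of ANKO mice held more transcript of the 5 phagocyte-type genes Cybb, Cyba, Ncf1, Ncf4 and Rac2 than brown fat of WT mice, with mean levels 8.41 to 14.5 times those of WT. Nox4 was 3.63 times its WT mean, while the widely expressed GTPase gene Rac1 was 1.13 times its own, with overlapping libraries. All 7 genes had enough counts to be fitted. In 6 of them the libraries of the 2 groups did not overlap and ANKO was higher. Of all genes tested 55.0% were free of overlap, 28.7% with ANKO higher and 26.4% with ANKO lower. Since the genes were picked on this contrast, nothing is read from that count. Their median log2 fold change was 3.21, against -0.01 over all genes tested.

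Cybb, the catalytic core of the oxidase (ENSMUSG00000015340, X, 9435252 to 9487771, minus strand, GRCm38), was at 90.3, 75.5, 107 and 101 CPM in ANKO1 to ANKO4 and at 7.62, 6.49, 5.61 and 6.08 CPM in WT1 to WT4. The lowest ANKO library, ANKO2, was far above the highest WT library, WT1. Means were 93.5 ± 13.9 CPM in ANKO and 6.45 ± 0.860 CPM in WT (SD, n = 4 each), a log2 fold change of 3.86 with a standard error (SE) of 0.15. Of the 16705 genes, 368 (2.20%) had a larger log2 fold change.

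Cyba (ENSMUSG00000006519, chromosome 8, 122424772 to 122432940, minus strand) encodes the membrane partner of both NOX2 and NOX4. It was at 38.5, 35.2, 59.3 and 57.8 CPM in the ANKO libraries and at 5.69, 6.18, 5.58 and 5.23 CPM in the WT libraries. The ANKO libraries fell into a lower pair, ANKO1 and ANKO2, and a higher pair, ANKO3 and ANKO4, and all 4 were above all WT libraries. The summed level of 20 macrophage markers was likewise lower in ANKO1 and ANKO2 (2312 and 2014 CPM) than in ANKO3 and ANKO4 (2937 and 2707 CPM). That split was not particular to macrophage markers. Skeletal muscle markers split the same way (9811 and 11232 against 15012 and 14837 CPM). Brown adipocyte markers split the opposite way (3415 and 3492 against 2260 and 1020 CPM). The log2 fold change of Cyba was 3.07 (SE 0.19).

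Ncf1 (ENSMUSG00000015950, chromosome 5, 134220053 to 134229625, minus strand) encodes the organizer subunit, whose phosphorylation starts assembly. It was at 19.3, 17.7, 24.6 and 24.2 CPM in the ANKO libraries and at 1.93, 2.06, 2.35 and 2.80 CPM in the WT libraries. The groups did not overlap, ANKO3 and ANKO4 were again the highest, and the log2 fold change was 3.21 (SE 0.17.) An exon of Ncf1 overlaps one of Gtf2ird2 on the opposite strand, which had 56 to 277 counts per library. Without a stated strand setting, reads of that stretch cannot be told apart.

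Ncf4 (ENSMUSG00000071715, chromosome 15, 78244801 to 78262580, plus strand) encodes the subunit that binds the phosphoinositide of phagosome membranes. It was at 9.18, 5.53, 7.94 and 7.87 CPM in the ANKO libraries and at 0.347, 0.855, 0.610 and 0.819 CPM in the WT libraries. These WT values rest on 7, 22, 20 and 36 reads, and the 95% Poisson interval of the lowest count runs from 2.81 to 14.4 reads, counting error only. The groups did not overlap, and the log2 fold change was 3.50 (SE 0.27), the widest of the 7 genes.

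Rac2, the GTPase of blood cells (ENSMUSG00000033220, chromosome 15, 78559169 to 78572783, minus strand), was at 27.0, 24.4, 29.3 and 26.1 CPM in the ANKO libraries and at 2.28, 2.18, 2.14 and 2.37 CPM in the WT libraries. Its libraries were close together within each group, and its log2 fold change of 3.57 had a standard error of 0.12. Rac1, found in most cell types (ENSMUSG00000001847, chromosome 5, 143505478 to 143528036, minus strand), was at 100.2, 107, 113 and 90.2 CPM in the ANKO libraries and at 85.1, 87.6, 94.0 and 96.6 CPM in the WT libraries. Its groups overlapped, since ANKO4 lay below WT3 and WT4, and its log2 fold change was 0.17 (SE 0.09.) With library totals in place of scaling factors, which move all genes upward, the value was 0.36. In GENCODE M21 a transcript of the neighbouring gene Daglb shares 2309 bases with Rac1, although their exons do not overlap in the coordinates of the count tables.

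Nox4 (ENSMUSG00000030562, chromosome 7, 87246096 to 87398710, plus strand) was at 6.73, 5.76, 5.96 and 8.16 CPM in the ANKO libraries and at 1.58, 2.14, 2.01 and 1.59 CPM in the WT libraries. The groups did not overlap, and the log2 fold change was 1.85 (SE 0.19), smaller than those of the 5 phagocyte-type genes and larger than that of Rac1. It rested on 50 to 176 reads in ANKO and on 32 to 70 reads in WT. In whole tissue, more cells of a type and more RNA per cell cannot be told apart, here and for each gene below. The plot of the 7 genes by library shows the separation of 6 genes and the overlap of Rac1.

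**Figure D1:**
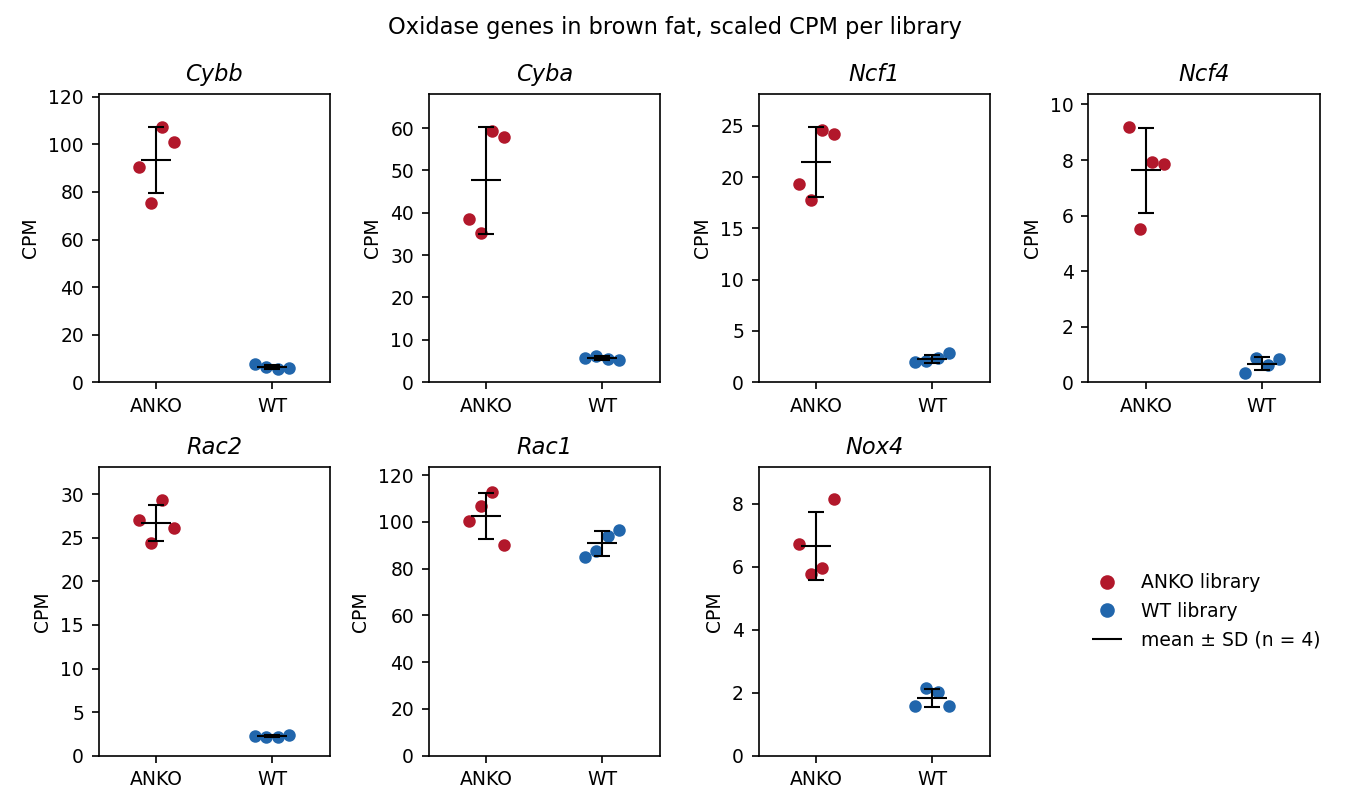
Scaled CPM (vertical axis, from 0) of each oxidase gene in 4 ANKO and 4 WT libraries of brown fat, each point 1 library, with mean and SD. ANKO libraries lie above all WT libraries for every gene except Rac1, where ANKO4 (90.2 CPM) lies below WT3 (94.0 CPM) and WT4 (96.6 CPM).

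Levels of different genes were compared per length, as RPKM from scaled counts. In ANKO the order of mean RPKM was Cyba at 62.9 ± 16.7, Rac1 at 38.6 ± 3.66, Cybb at 16.1 ± 2.39, Rac2 at 8.80 ± 0.672, Ncf1 at 5.86 ± 0.940, Ncf4 at 3.78 ± 0.754 and Nox4 at 0.785 ± 0.128 (SD, n = 4). No neighbours in that order overlapped between libraries. In WT, Rac1 led at 34.3 ± 2.03 RPKM, followed by Cyba at 7.48 ± 0.514, Cybb at 1.11 ± 0.148, Rac2 at 0.737 ± 0.0343, Ncf1 at 0.624 ± 0.105, Ncf4 at 0.325 ± 0.116 and Nox4 at 0.216 ± 0.0337 (SD, n = 4). The libraries of Rac2 and Ncf1, and those of Ncf4 and Nox4, overlapped in WT, so those neighbours did not differ beyond their spread. Cyba and Rac1 thus stood in opposite order in the 2 groups, and the other 5 genes kept their order of means.

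**Figure D2:**
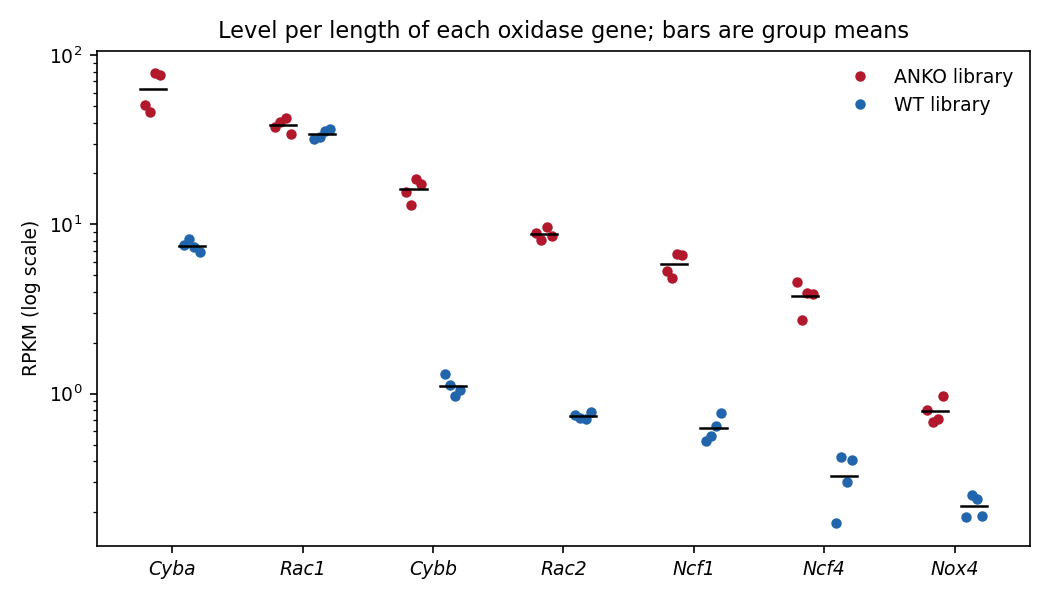
RPKM (log axis) of each oxidase gene in 4 ANKO and 4 WT libraries, each point 1 library, with bars at group means. Cyba is above Rac1 in ANKO (62.9 and 38.6 RPKM) and below it in WT (7.48 and 34.3 RPKM).

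The balance between partner genes differed as well. Rac2 made up 19.1%, 16.7%, 18.5% and 20.2% of the summed Rac1 and Rac2 RPKM in the ANKO libraries and 2.28%, 2.12%, 1.95% and 2.10% in the WT libraries. Rac1 therefore stayed the more abundant of these GTPase transcripts in every library. The ratio of Cyba to Cybb, which encode partners in the membrane complex, was 3.87 ± 0.537 in ANKO and 6.81 ± 0.841 in WT (SD, n = 4 each), and every ANKO library lay below every WT library. Nox4 made up 4.69% ± 0.701 of the summed Cybb and Nox4 RPKM in ANKO and 16.5% ± 3.27 in WT (SD, n = 4 each), again without overlap. These ratios combine genes picked on this contrast and carry no test.

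**Figure D3:**
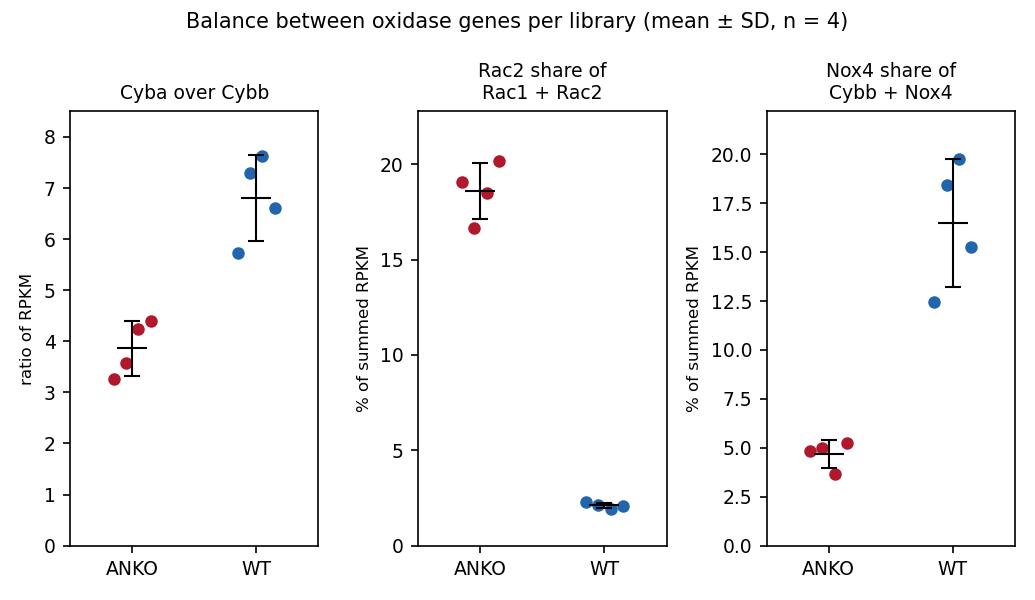
Ratio of Cyba to Cybb RPKM, percent of Rac2 in Rac1 plus Rac2, and percent of Nox4 in Cybb plus Nox4, each point 1 library, with mean and SD (n = 4), for ANKO and WT. ANKO lies lower for Cyba over Cybb (3.87 against 6.81) and for the Nox4 percentage (4.69% against 16.5%), and higher for the Rac2 percentage (18.6% against 2.11%).

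Markers of macrophages, the main tissue phagocyte, moved with the phagocyte-type genes. Of 20 macrophage markers 19 rose and 0 fell, against 30.6% of all tested genes that rose and 27.6% that fell. Cd163, a scavenger receptor gene, was the marker that did not pass (log2 fold change -0.12). Its sign changed under the alternatives, and it was called higher with the muscle covariate and without WT3 and WT4. The summed level of the 20 markers was 2014 to 2937 CPM in ANKO and 225 to 321 CPM in WT. Neutrophil markers were low in both groups, with sums of 10.8 to 15.1 CPM in ANKO and 4.85 to 7.48 CPM in WT, and Ly6g, a defining neutrophil gene, had 0 counts in all 8 libraries. Only 3 of 13 neutrophil markers could be tested, of which Csf3r and Ltf rose and Mmp9 fell, the call of Ltf being lost with any library but ANKO4 or WT4 left out. Of 15 lymphocyte markers, 14 rose, and the sum was 42.5 to 68.0 CPM in ANKO and 6.99 to 8.59 CPM in WT. Of 7 dendritic cell markers, another phagocyte lineage, 6 rose and Zbtb46 fell (a call lost with library totals and with the muscle covariate). Their median log2 fold change was 2.13, and their sums were 97.3 to 134 CPM in ANKO and 71.3 to 86.4 CPM in WT. Zbtb46 alone averaged 54.1 CPM in ANKO and 70.4 CPM in WT, so these sums rest largely on it. The part of these cell types in the oxidase values was not tested.

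Set against the macrophage markers, the oxidase genes differed among themselves. The 20 markers did not rise alike, and their ANKO means ran from 0.922 to 54.7 times their WT means. Their sum is therefore a different mixture in the 2 groups, and values set against it are not amounts per macrophage. Per 100 CPM of summed macrophage markers, Ncf1 averaged 0.862 ± 0.0298 CPM in ANKO and 0.854 ± 0.0211 CPM in WT (SD, n = 4 each), with overlapping libraries. Cyba (1.89 ± 0.222 in ANKO, 2.17 ± 0.420 in WT), Ncf4 (0.308 ± 0.0599 in ANKO, 0.244 ± 0.0777 in WT) and Rac2 (1.09 ± 0.123 in ANKO, 0.851 ± 0.122 in WT) overlapped too. Cybb was at 3.91, 3.75, 3.65 and 3.72 in the ANKO libraries and at 3.39, 2.59, 2.06 and 1.89 in the WT libraries, so all ANKO libraries were higher, ANKO3 and WT1 being nearest to each other. Nox4 was at 0.291, 0.286, 0.203 and 0.301 in the ANKO libraries and at 0.705, 0.854, 0.738 and 0.496 in the WT libraries, so it was lower in ANKO on this scale. Rac1 was at 4.20 ± 0.835 in ANKO and 34.4 ± 3.23 in WT (SD, n = 4 each). The marker sum in ANKO was 9.33 times its WT mean, against 3.63 times for Nox4 and 1.13 times for Rac1. The lower values of Nox4 and Rac1 follow from these means and are no separate result. Against Ptprc alone, the pan-leukocyte gene that is also 1 of the 20 markers, Cybb was at 0.477 ± 0.0458 in ANKO and 0.379 ± 0.0745 in WT (SD, n = 4 each), and the libraries overlapped.

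**Figure D4:**
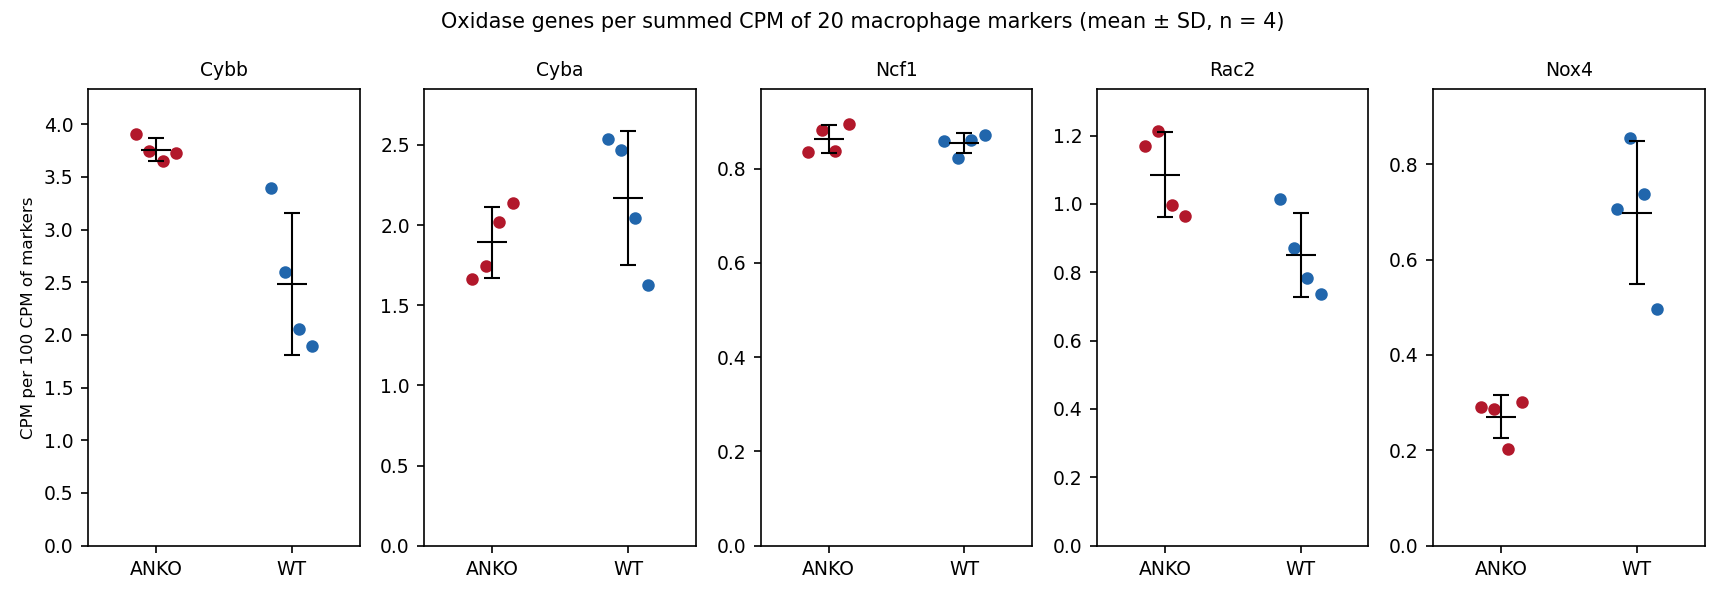
CPM of 5 oxidase genes per 100 CPM of 20 summed macrophage markers in ANKO and WT, each point 1 library, with mean and SD (n = 4). The groups overlap for Ncf1 (0.862 and 0.854) and Cybb is higher in ANKO (3.76 against 2.48). Nox4, which rose less than the marker sum, is lower in ANKO (0.270 against 0.698). The mixture of markers in the sum differs between the groups.

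Several other genes of the oxidase family were scarce. Duox1 (log2 fold change 0.54), Duox2 (0.38), catalytic genes of the thyroid and epithelial oxidases, and Noxo1 (0.25), the organizer of the NOX1 complex, did not pass. Nox1, Nox3, Duoxa1, Duoxa2 and Noxa1 had too few counts to be tested.

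Genes that assemble, switch on or restrain the oxidase were mostly higher: 16 of 23 rose and 3 fell, with a list median of 1.34 against -0.01 over all genes tested, the value beside which the medians of the lists below stand. Among activators of Rac, Dock2 rose to 107 ± 16.6 CPM in ANKO, against 8.97 ± 0.958 CPM in WT (SD, n = 4 each; log2 fold change 3.57, SE 0.14, edgeR adjusted p = 1.16e-07). Vav1, the blood cell member of its family, rose by 3.32 on the log2 scale, Prex1 by 2.34 and Vav3 by 1.34. Tiam1, a Rac activator of many tissues, fell to 14.6 ± 2.34 CPM in ANKO, against 29.0 ± 6.12 CPM in WT (SD, n = 4 each; edgeR adjusted p = 0.000605). Of the 16 that rose, 4 are genes of proteins that hold Rac inactive, so the count is not one of activators alone. Arhgap25, whose product speeds GTP hydrolysis by Rac, had a log2 fold change of 2.95, its relative Arhgap15 of 2.47, and Arhgdib, which holds Rac and related GTPases in the cytosol, of 1.91. Arhgdia, its widely expressed relative, had a log2 fold change of 0.57.

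Hvcn1, the proton channel that balances the charge moved by the oxidase, rose to 65.7 ± 16.4 CPM in ANKO, against 6.13 ± 2.50 CPM in WT (SD, n = 4 each; log2 fold change 3.45, edgeR adjusted p = 9.68e-06). Prkcb and Prkcd, protein kinases that phosphorylate the Ncf1 product, rose by 3.29 and 2.17 on the log2 scale. Pla2g4a, a phospholipase that frees arachidonate, rose by 3.42 and Pak1, a kinase bound by active Rac, by 2.75. Cybc1, the chaperone of the Cybb and Cyba heterodimer, rose by 0.49, beside 3.86 for Cybb and 3.07 for Cyba. Of the GTPases copurified with the membrane complex, Rap1b rose by 0.55. Rap1a (log2 fold change -0.22) and Pak2 (-0.21) passed narrowly with edgeR adjusted p = 0.0399 and 0.0434, and both calls were lost under each other scaling except RLE. They were also lost with the other filters, the replicate block, thinning and without WT3 and WT4. With 1 library left out, Rap1a kept its call only without WT1 or ANKO1, and Pak2 only without WT4 or ANKO4. With the muscle covariate 14 genes of this list were called, and the calls of Cybc1, Tiam1, Rap1a and Pak2 were among those lost.

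Upstream of the oxidase, all 19 tested genes of 21 receptors and kinases rose, with a median log2 fold change of 3.30. Fpr1 and Fpr2, the formyl peptide receptors, had too few counts. Fcgr1, the high-affinity IgG receptor, rose to 16.0 ± 2.25 CPM in ANKO, against 0.760 ± 0.249 CPM in WT (SD, n = 4 each; log2 fold change 4.33, edgeR adjusted p = 4.87e-07). Fcgr4, another activating IgG receptor, rose by 4.12 on the log2 scale, and the leukocyte phosphoinositide kinase Pik3cd by 2.87. Fcgr1 and Itgam of this list also stand among the macrophage markers, so the lists are not separate evidence.

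Of 9 tested transcription factor genes known to act on oxidase promoters in myeloid cells, 7 rose and 1 fell, with a median of 0.60. Spi1, which encodes PU.1, averaged 21.6 ± 5.45 CPM in ANKO and 1.59 ± 0.215 CPM in WT (SD, n = 4 each; log2 fold change 3.76, edgeR adjusted p = 6.98e-07). Irf8, an interferon regulatory factor of the macrophage lineage, rose by 3.11 on the log2 scale and Irf1 by 1.17. Cebpb, a factor of both adipocytes and macrophages, fell by 0.80. Spi1, Irf8 and Irf1 were called with the muscle covariate as well, while Cebpb was not.

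The genes around Nox4 went in both directions: 5 of 10 rose and 2 fell, with a median of 0.37. TGF-beta is a known inducer of Nox4 in fibroblasts, and its 3 ligand genes rose, Tgfb2 by 1.84, Tgfb1 by 1.63 and Tgfb3 by 1.51 on the log2 scale, with mean levels of Tgfb1 of 23.5 ± 4.48 CPM in ANKO, against 7.61 ± 0.216 CPM in WT (SD, n = 4 each; edgeR adjusted p = 7.27e-06). Poldip2, which encodes a protein that binds the Cyba product and stimulates NOX4, fell to 117 ± 30.5 CPM in ANKO, against 251 ± 36.1 CPM in WT (SD, n = 4 each; log2 fold change -1.09, edgeR adjusted p = 0.000918), a call lost with the muscle covariate. Sh3pxd2a, an organizer-type adaptor with roles in podosomes, fell by 2.09. Markers of fibroblasts and mural cells, which can express Nox4, summed to 4098 to 6875 CPM in ANKO and to 1795 to 2066 CPM in WT, with 8 of 11 higher and 1, the pericyte gene Rgs5, lower. General adipocyte markers summed to 8554 to 12276 CPM in ANKO and to 18509 to 25361 CPM in WT, and all 9 fell. The part of these cells in the Nox4 values was not tested.

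Genes that remove superoxide and peroxide moved mostly the other way, with 8 of 14 lower, 1 higher and a median of -0.58. Gpx3, a secreted glutathione peroxidase, fell to 153 ± 48.3 CPM in ANKO, against 1656 ± 406 CPM in WT (SD, n = 4 each; log2 fold change -3.44, edgeR adjusted p = 4.8e-06). Gpx8, a peroxidase of the endoplasmic reticulum, fell by 1.32 on the log2 scale, and the mitochondrial peroxiredoxin genes Prdx5 and Prdx3 fell by 0.96 and 0.94. Sod1, the cytosolic superoxide dismutase gene, had a log2 fold change of -0.44 and did not pass (edgeR adjusted p = 0.056). It was called lower with DESeq2, with no filter on low counts, without WT1 and without ANKO1. Prdx4 rose by 0.27, a call lost with any ANKO or WT library left out. With the muscle covariate 2 of the 14 were called, and the calls of Prdx3, Prdx4 and Prdx5 were lost.

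Of 8 genes that supply cytosolic NADPH, 2 rose and 2 fell, with a median of 0.20, shares near those of all tested genes (30.6% higher, 27.6% lower). Me1, malic enzyme, averaged 800 ± 366 CPM in ANKO and 195 ± 59.1 CPM in WT (SD, n = 4 each; log2 fold change 2.03, SE 0.36, edgeR adjusted p = 0.00104). Pgd, of the pentose phosphate pathway, rose by 1.44 on the log2 scale. Pgls, the lactonase of the same pathway, fell by 1.18, and Nadk, the NAD kinase gene, fell by 0.73. Only 1 of these genes was called with the muscle covariate, under which Me1, Pgd and Nadk kept their direction at 1.66, 1.37 and -0.54 on the log2 scale but lost their calls. The plot of the lists shows the receptors wholly to the right of 0 and the removal genes mostly to its left.

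**Figure D5:**
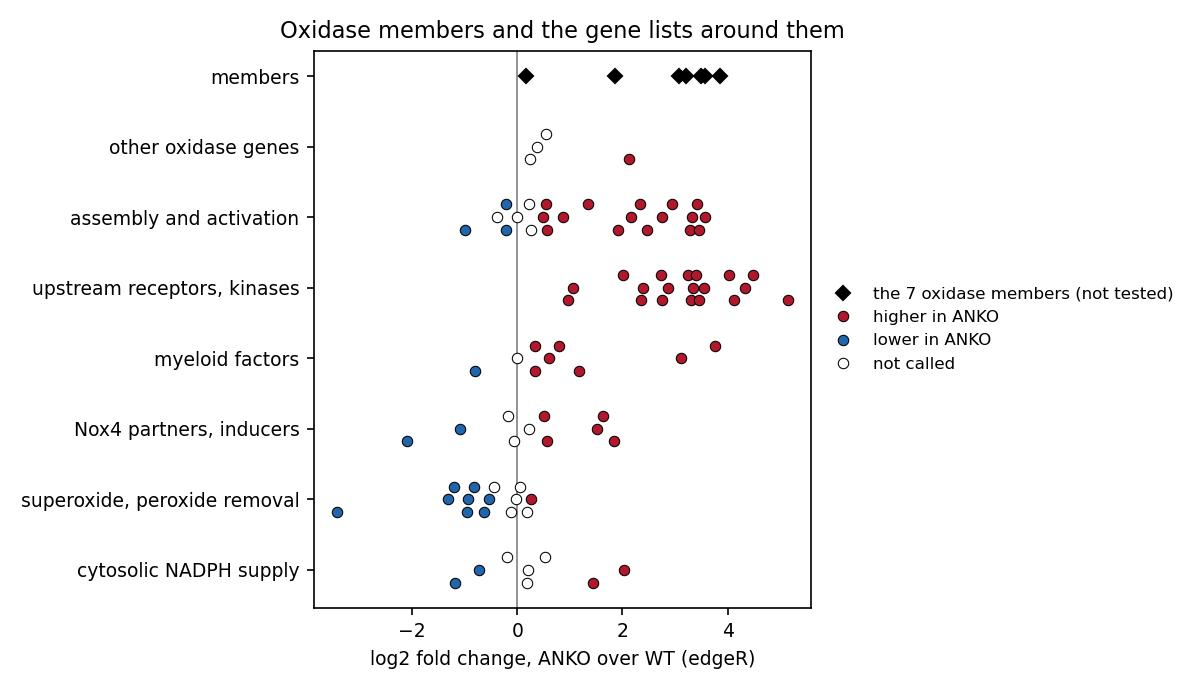
Log2 fold change of ANKO over WT (horizontal axis, edgeR) for the 7 oxidase members (diamonds, not tested) and the tested genes of 7 lists, each point 1 gene, filled where called. All 19 receptor and kinase genes are higher, whereas 8 of 14 superoxide and peroxide removal genes are lower.

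Over 12333 protein-coding genes averaging 2 CPM or more, likeness was measured as the root mean square difference between log2 profiles over the 8 libraries, each centred on its own mean. The profiles nearest to Cybb were Cd72 (0.0859), Slc15a3, Slc11a1, Ptafr and Pik3ap1 (0.170). Among the members Rac2 was nearest to Cybb, at rank 16, followed by Ncf1 at rank 143, Cyba at rank 182 and Ncf4 at rank 207. Nox4 ranked 1090 and Rac1 4504. Nearest to Nox4 were Antxr1 (0.122), Col14a1, Ifi203, Il13ra1 and Csf1 (0.157), and the nearest other member, Cyba, ranked 2107. Nearest to Rac1 were Dcaf5 (0.0538), Clcn6, Snrpd3, Rpl39 and Ipo5 (0.0683). These distances rest mostly on the step between ANKO and WT, which all 8 libraries share, and describe likeness only.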

How the data were processed

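Brown fat RNA of 4 ANKO and 4 WT mice was depleted of ribosomal RNA and sequenced, per the labels' protocols. The submitters' processing notes name STAR 2.0.4b, featureCounts 1.45 (Subread) and the GRCm38 build. No strand setting or annotation release is stated in the sources. The authors deposited, per the file headers, a whole-number count, a CPM and an RPKM for 41388 genes in each library. The deposited CPM and RPKM were checked to be the count divided by the library total, and that divided by gene length, and only the counts were used further. Symbols came from GENCODE M21 (40340 IDs matched), and 355 rRNA rows, 0.801% to 1.13% of counts in ANKO and 2.83% to 3.53% in WT, were left out.

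The members and all gene lists were chosen with earlier results of these data known. Counts were filtered with filterByExpr, scaled by TMM and fitted with edgeR 4.0.16 (R 4.3.3; quasi-likelihood, robust, no covariate). Benjamini-Hochberg adjustment ran over 16705 genes, and an adjusted p under 0.05 was called. Printed CPM are counts over scaled library sizes, and printed RPKM are that per kb. The biological coefficient of variation was 20.6%. Replicates are separate mice per the series design, and no library pair agreed within sampling noise (lowest chi-square per degree of freedom 6.63). On data simulated for ANKO against WT over 16513 genes, 100% of 46 genes changed 4-fold were called. The shares were 65.3% of 49 genes changed 2-fold and 16.0% of 50 changed 1.5-fold. In that simulation 16320 genes were left unchanged and all genes shared a common dispersion, whereas 58.2% of genes were called in the data. The simulated shares therefore do not measure the sensitivity of the real comparison. Lists were described by counts, with no set test. Named genes were the members, all oxidase and assembly genes, and up to 4 called genes with the smallest p and 3 exceptions per other list. Some genes that this rule takes are not reported here. Alternatives were RLE, upper-quartile and no scaling, other filters, limma-voom (limma 3.58.1), DESeq2 1.42.0, the replicate number as a block, libraries left out, thinning, rRNA rows kept and a muscle marker covariate. Depth limits low genes most in ANKO4, and intervals and floors cover counting error only, since PCR copies are not independent molecules. Promoters are from RefSeq (GRCm38.p6).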

Additional observations from a re-analysis of the deposited data

Results flagged for a closer look

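Of 148 groups of 4 libraries checked, 7 had 1 library far from the other 3, and chance alone flags about 1 group in 20. In ANKO1 the ratio of Ncf1 to Ncf4 RPKM was 1.16, against 1.70 to 1.77 in the other ANKO libraries. In the same library Ncf4 was at 0.397 CPM per 100 CPM of macrophage markers, against 0.270 to 0.291 in the other ANKO libraries, which is the same high Ncf4 value seen on another scale. Nox4 per 100 CPM of macrophage markers was 0.203 in ANKO3, against 0.286 to 0.301 in the other ANKO libraries. Prex1 was at 11.1 CPM in WT1, against 9.52 to 9.72 CPM in the other WT libraries. Sh3pxd2a was at 1756 CPM in WT2, against 1536 to 1539 CPM in the other WT libraries. Of the cell type markers, Ltf was at 2.69 CPM in WT4, against 0.732 to 1.04 CPM in the other WT libraries, and Rgs5 was at 829 CPM in WT3, against 730.4 to 747 CPM in the other WT libraries.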

How the results depend on the processing

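Over all alternatives run the log2 fold change of each of the 7 oxidase genes stayed above 0. With 1 library left out it was 3.79 to 3.94 for Cybb, 2.94 to 3.18 for Cyba, 3.12 to 3.32 for Ncf1, 3.31 to 3.62 for Ncf4, 3.52 to 3.61 for Rac2, 0.12 to 0.23 for Rac1 and 1.75 to 1.92 for Nox4. Library totals alone gave 0.36 for Rac1 and 3.76 for Rac2, with 2940 genes lower in ANKO, and upper-quartile scaling gave 3.66 for Rac2. Thinning to the lowest total gave 2.18 for Nox4, with 7 lymphocyte markers and 1 neutrophil marker called. The muscle covariate gave 3.60 for Cybb, 3.58 for Ncf1 and 0.32 for Rac1, with 3887 genes called, 2246 higher and 1641 lower. Under it 2 brown adipocyte, 2 general adipocyte, 4 myeloid factor, 2 removal, 1 NADPH supply and 0 skeletal muscle genes were called. The cause was not tested. Muscle markers, of which 9 were called, numbered 2 with no filter, 3 with the replicate block and 1 to 12 with 1 library left out. By CPM in place of RPKM, 4 members in ANKO and 1 in WT kept their rank. Uncalled genes turned negative as follows: Duox2 (-1.001) and Noxo1 (-0.84) with the covariate, Duox2 (-0.22) and Noxo1 (-0.32) without WT3 and WT4, and, with 1 library left out, Duox1 (-0.0433 to 0.74) and Noxo1 (-0.00763 to 0.61), the negative values being those without ANKO1 and without WT3. Cd163, uncalled in the main fit, turned positive with library totals (0.0761), the replicate block (0.0043), the covariate (1.10) and without WT3 and WT4 (0.57). It ran from -0.37 to 0.0984 with 1 library left out. It was called higher with the covariate (edgeR adjusted p = 0.0441) and without WT3 and WT4 (edgeR adjusted p = 0.0345).

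The replicate numbers showed no sign of pairing the mice: same-numbered deviations correlated at 0.11, -0.01, 0.07 and -0.05. Differently numbered ones ran from -0.13 to 0.12. So few correlations cannot exclude pairs. With the replicate block 9239 genes were called, against 9726 without it, and the calls of Rap1a, Pak2, Prdx4 and Ltf were lost. Depth limits Ncf4 and Nox4 most, with 7 to 36 and 32 to 70 reads per WT library.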

Other observations

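Ncf4 and Rac2 lie on the same chromosome 15, 296.6 kb apart, with 10 protein-coding genes between them. The other members are on 4 further chromosomes, with Ncf1 and Rac1 both on chromosome 5. Cyba RPKM over the sum of its catalytic partners Cybb and Nox4 was 3.69 ± 0.518 in ANKO and 5.67 ± 0.491 in WT (SD, n = 4 each), and the libraries did not overlap. The ratio of Ncf1 to Ncf4 RPKM was 1.58 ± 0.284 in ANKO and 2.10 ± 0.728 in WT (SD, n = 4 each), with overlapping libraries.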
